A study of Homo sapiens with 36 samples.

Results

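The miRNAs of WI-38 cells were compared at the end of 2 acute insults, with SDS on one side and doxorubicin (DXR) on the other. WI-38 is a strain of normal human lung fibroblasts with a limited number of divisions. All cells started as untreated proliferating cultures. SDS D0 cells had been given 0.0095% sodium dodecyl sulphate for 24 h, a detergent that damages the plasma membrane at this dose and is used in the study to start plasma membrane damage-dependent senescence (PMD-Sen). DXR D0 cells had been given 250 nM DXR for 24 h, a topoisomerase poison that breaks DNA and starts DNA damage response-dependent senescence (DDR-Sen). D0 is the time of washout. Each group had 2 libraries, so the comparison used 4 of the 36 libraries of the series, and all 1508 miRNAs of the table were considered. Ctrl was young, untreated proliferating cells, also with 2 libraries. Later days counted from washout (D1 to D16) had 2 libraries per agent and day. The series also holds 2 libraries of replicative senescence (RS), from cells brought to senescence by serial passage. The RS libraries entered the joint fit and the values over the whole series only. Each treated group holds 1 cell strain and 1 dose, so the effect of an agent cannot be told apart from that of its dose.

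A miRNA is a short RNA cut from a hairpin precursor by Drosha and then Dicer. Loaded into Argonaute, it pairs with target mRNAs mainly through its seed, which is bases 2 to 8, and lowers their translation and stability. A mature miRNA can outlast its precursor for many hours. The miR-34 genes are direct targets of p53, the transcription factor that DNA damage stabilizes. Some annotated miRNAs have sequences shared with tRNA, rRNA or small nuclear RNA, and a few others, such as miR-320 and the mirtrons (short introns that fold into hairpins), are made without Drosha.

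The libraries differed most in depth. The SDS D0 libraries held 104439 and 81668 counts, the smallest of the 36, and the DXR D0 libraries held 490950 and 311049. Levels are given in CPM, the counts of a miRNA per 1000000 counts of the library total after TMM scaling. A count of 0 allows up to 3 counts, which is 27.6 and 33.4 CPM in the SDS D0 libraries but 6.44 and 9.00 CPM in the DXR D0 libraries. A miRNA under 30.5 CPM in DXR D0, the mean of the SDS D0 limits, could not be shown to be lower in SDS D0 at this depth. These limits cover counting error only. Across the 360 tested miRNAs, log2 CPM correlated at 0.937 between the SDS D0 replicates and 0.978 between the DXR D0 replicates, and at 0.942 to 0.956 between an SDS D0 and a DXR D0 library. The SDS D0 replicates were therefore no more alike than libraries of the 2 agents. The 8 fibroblast markers summed to 89759 and 139756 CPM in SDS D0 and 137318 and 125074 CPM in DXR D0. A large part of each sum was miR-21-5p alone, at 44498 and 95507 CPM in SDS D0 and 91106 and 70075 CPM in DXR D0. The listed markers at 0 in all 4 libraries were miR-223-3p, miR-142-5p and miR-150-5p (blood), miR-124-3p (neuron), miR-205-5p and miR-429 (epithelium) and miR-133a-3p and miR-206 (muscle). Other markers of these cell types were present. The 4 neuron markers summed to 763 and 791 CPM in SDS D0 and 942 and 621 CPM in DXR D0, nearly all of it miR-128-3p. The 7 epithelial markers summed to 55.1 and 55.7 against 70.8 and 75.0 CPM, and the hepatocyte marker miR-122-5p was at 129 and 167 against 131 and 72.0 CPM. The muscle markers were at 0 in SDS D0 and summed to 15.0 and 3.00 CPM in DXR D0.

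Of the 360 miRNAs tested, 25 passed an unadjusted p of 0.05 and an absolute log2 difference of 1, the thresholds of the study (6.94% of those tested). These are termed called here. The level was higher in SDS D0 than in DXR D0 for 12 of them (3.33%) and lower for 13 (3.61%). At a Benjamini-Hochberg adjusted p of 0.05 there were 6 (1.67%). miR-1260b, miR-296-3p and miR-487b-5p were higher in SDS D0, and miR-335-3p, miR-7-5p and miR-34a-5p were lower. The median log2 difference of all tested miRNAs was -0.02, and 48.6% lay above 0. Both libraries of one agent lay above both of the other for 142 tested miRNAs (39.4%) and for 24 of the 25 called. With DESeq2 on the 4 libraries, calls were lost for miR-487b-5p, miR-3605-5p, miR-296-5p, miR-4485-3p, miR-532-3p, miR-320c, miR-299-5p, miR-30c-2-3p, miR-490-3p, miR-7706, miR-126-3p, miR-140-5p, miR-34c-5p and miR-182-5p, and with libraries thinned to the smallest total for miR-299-5p, miR-30c-2-3p, miR-490-3p, miR-7706, miR-34c-5p and miR-542-3p, among the named miRNAs that still gave a value. Each kept its direction. A level is a share of a library made from the same amount of RNA, so that a change per cell cannot be told apart from a change in which cells remained.

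**Figure D1:**
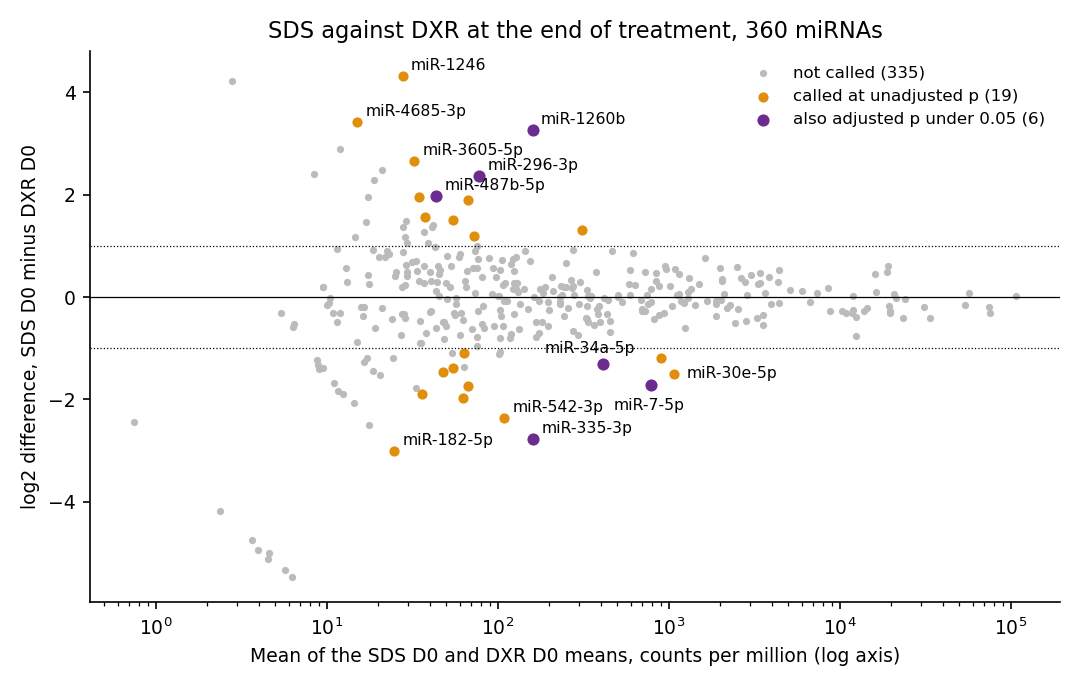
Log2 difference between SDS D0 and DXR D0 (vertical) against the mean level of both agents in CPM (horizontal, log axis) for 360 miRNAs; colours mark the 25 called miRNAs and, among them, the 6 at adjusted p under 0.05, and dotted lines mark a log2 difference of 1 in either direction. The called miRNAs lie at low and middle levels and none of the 10 most abundant is among them; points below -4 have 0 counts in both SDS D0 libraries, where the fitted difference is no bound.

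The mature sequences of the 6 miRNAs at adjusted p under 0.05 are shown because the comparison rests on them. They are from RefSeq (GRCh38.p14), written 5′ to 3′, with the seed in capitals.
miR-1260b: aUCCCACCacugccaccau
miR-296-3p: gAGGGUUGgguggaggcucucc
miR-487b-5p: gUGGUUAUcccuguccuguucg
miR-335-3p: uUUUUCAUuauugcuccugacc
miR-7-5p: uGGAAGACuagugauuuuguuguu
miR-34a-5p: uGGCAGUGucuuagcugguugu

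No 2 of the 6 share a seed. Their precursors lie on different chromosomes. The hairpin of miR-1260b is at chr11:96341438-96341526 on the plus strand. No host gene with a gene symbol was found on that strand, and genes without a symbol were not searched. The hairpin of miR-296 is at chr20:58817615-58817694 on the minus strand. The hairpin of miR-487b is at chr14:101046455-101046538 on the plus strand, in an intron of the lncRNA MEG9. miR-335 is encoded in an intron of MEST, an imprinted gene, at chr7:130496111-130496204 on the plus strand. miR-34a is in an exon of its host lncRNA MIR34AHG at chr1:9151668-9151777 on the minus strand. miR-7-5p has more than 1 gene. The mature sequence lies within HNRNPK at chr9:83969811-83969834 on the minus strand, and in an intron of MIR7-3HG at chr19:4770700-4770723 on the plus strand.

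miR-1260b showed the largest difference at adjusted p. It was at 312 and 267 CPM in SDS D0 and at 27.9 and 33.0 CPM in DXR D0, from 34 and 24 counts against 13 and 11. Both SDS libraries were therefore far above both DXR libraries, although the DXR libraries were deeper. The fitted level was 9.54-fold higher in SDS D0 (log2 difference 3.25, SE 0.51, adjusted p = 0.000192). Ctrl lay between them at 73.0 and 91.5 CPM. The log2 difference from Ctrl was 1.81 (SE 0.47) in SDS D0 and -1.45 (SE 0.52) in DXR D0, each past the unadjusted thresholds, but neither at an adjusted p of 0.05. These comparisons share the 2 Ctrl libraries. The other 34 libraries of the series, RS included, ranged from 27.6 to 177 CPM, with a median of 67.1 CPM. Both SDS D0 libraries therefore stood above all of them.

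miR-7-5p, a miRNA known to repress EGFR and IRS signalling, was lower in SDS D0. It was at 395 and 346 CPM in SDS D0 and at 1251 and 1176 CPM in DXR D0. The 2 groups did not overlap, and DXR D0 was 3.27-fold higher (log2 difference -1.71, SE 0.41, adjusted p = 0.0245). Ctrl had 1207 and 1782 CPM. The difference from Ctrl was -2.01 in SDS D0 (adjusted p = 0.0133), the only miRNA at an adjusted p of 0.05 in that comparison (0.278%), and -0.30 in DXR D0, which did not pass.

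miR-34a-5p, the best known p53-induced miRNA, targets cyclin D, CDK6 and SIRT1 mRNAs. It was at 239 and 234 CPM in SDS D0 and at 502 and 669 CPM in DXR D0, with no overlap. DXR D0 was 2.47-fold higher (log2 difference -1.30, SE 0.32, adjusted p = 0.0245). Both Ctrl libraries were at 352 CPM, above both SDS D0 libraries and below both DXR D0 libraries. Neither the -0.57 of SDS D0 nor the 0.73 of DXR D0 against Ctrl reached a log2 difference of 1.

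miR-335-3p rested on few SDS counts. It had 2 and 6 counts in SDS D0 and 176 and 60 in DXR D0, which are 18.4 and 66.9 against 378 and 180 CPM. The first SDS library was below the level that 3 counts give, and the groups did not overlap. DXR D0 was 6.87-fold higher in the fit (log2 difference -2.78, SE 0.60, adjusted p = 0.0122). Its partner arm miR-335-5p moved the same way. It was at 515 and 591 CPM in SDS D0 and at 1273 and 1251 CPM in DXR D0 (log2 difference -1.19, SE 0.34, adjusted p = 0.0719). Both arms together were thus called lower in SDS D0, with miR-335-5p outside the naming rule and named after its values were seen.

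miR-296-3p had 184 and 78.0 CPM in SDS D0 and 32.2 and 18.0 CPM in DXR D0, from 20 and 7 against 15 and 6 counts (log2 difference 2.36, SE 0.59, adjusted p = 0.0294). miR-487b-5p had 82.7 and 55.7 CPM in SDS D0 and 15.0 and 21.0 CPM in DXR D0, from 9 and 5 against 7 and 7 counts (log2 difference 1.97, SE 0.52, adjusted p = 0.0409). Neither overlapped between the agents. Against Ctrl, their differences were 0.94 and 0.36 in SDS D0 and -1.42 and -1.60 in DXR D0, and only those of DXR D0 passed the unadjusted thresholds. Both calls ended without SDS D0 replicate 1, at a log2 difference of 1.54 for miR-296-3p and 1.59 for miR-487b-5p.

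**Figure D2:**
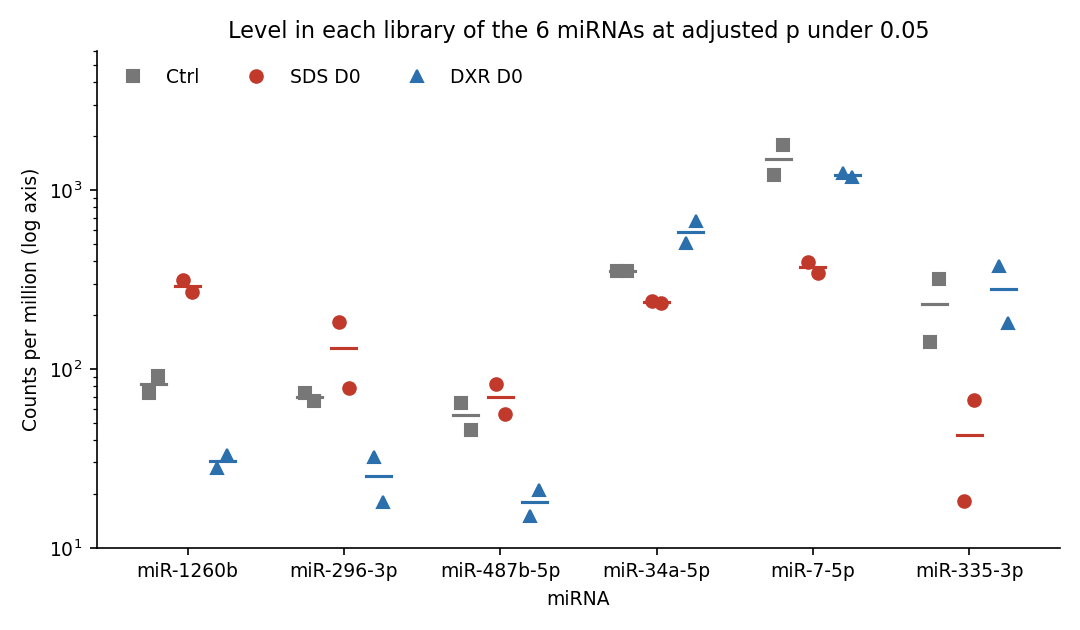
Level in CPM (vertical, log axis) of the 6 miRNAs at adjusted p under 0.05 (horizontal) in each library; squares are Ctrl, circles SDS D0 and triangles DXR D0, each symbol is 1 library and each bar the mean of 2. In each column the SDS D0 and DXR D0 symbols do not overlap, which held for 39.4% of all tested miRNAs. The 6 were chosen for a difference between the agents, so their symbols stand apart largely by that choice. miR-1260b, at 312 and 267 against 27.9 and 33.0 CPM, is the most widely separated.

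Annotated miRNAs with sequence of structural RNA formed 3 of the 12 called higher in SDS D0. Of 21 listed, 5 were tested, 3 were called higher (3.33% over all tested), and 0 lower. The median log2 difference was 1.90, against -0.02 for all tested. Their summed level was 726 and 446 CPM in SDS D0, 195 and 144 CPM in DXR D0 and 172 and 203 CPM in Ctrl. Besides miR-1260b, listed for the likeness of its letters to the end of a tRNA, these were miR-4485-3p and miR-1246, printed because their letters also occur in other RNAs.
miR-4485-3p: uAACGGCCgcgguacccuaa
miR-1246: aAUGGAUUuuuggagcagg

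The whole letters of miR-4485-3p (chr11:10508277-10508296, minus strand) also occur in the mitochondrial 16S rRNA MT-RNR2. It was at 101 and 111 CPM in SDS D0 and at 34.3 and 21.0 CPM in DXR D0, with Ctrl between them at 47.3 and 54.3 CPM (log2 difference 1.90, SE 0.62, adjusted p = 0.121). The letters of miR-1246 (chr2:176601024-176601042, minus strand) occur in 8 annotated small nuclear RNA genes, RNU2-1 among them. It had 8 and 3 counts in SDS D0, 2 and 0 in DXR D0 and 0 in both Ctrl libraries. The ratio of SDS D0 to DXR D0 was 22.1, with an exact 95% counting interval of 4.83 to 206, and without SDS D0 replicate 1 miR-1246 was not called (fitted log2 difference 3.57). Which RNA the reads of either miRNA came from was not tested. miR-664a-3p, which overlaps a snoRNA, was at 211 and 11.1 CPM in SDS D0 and at 83.7 and 51.0 CPM in DXR D0, so that its SDS libraries lay on both sides of the DXR libraries. miR-664a-5p had 2 and 1 counts in SDS D0 against 18 and 10.

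Of the miRNAs made without Drosha, 8 of 16 listed were tested, 2 were called higher in SDS D0 (3.33% over all tested) and 0 lower, and 6 had both SDS D0 libraries above both DXR D0 libraries, which held for 16.9% of all tested. These 6 were miR-320a, miR-320b and miR-320c of the miR-320 family, both arms of miR-877, and miR-484. They share libraries and are not independent. The mirtron miR-1226-3p lay the other way, with both DXR D0 libraries above both SDS D0 libraries (log2 difference -0.78, SE 0.53, not called). The median log2 difference of the list was 0.76. The called members were miR-320c and miR-877-5p, a mirtron in an intron of ABCF1. miR-320c had 82.7 and 78.0 CPM in SDS D0 and 21.5 and 36.0 CPM in DXR D0 (log2 difference 1.51, SE 0.56, adjusted p = 0.181). miR-877-5p had 570 and 312 CPM in SDS D0 and 157 and 201 CPM in DXR D0 (log2 difference 1.32, SE 0.44, adjusted p = 0.123). Without SDS D0 replicate 1 neither was called, at 1.42 for miR-320c and 0.76 for miR-877-5p, and without DXR D0 replicate 1 they were at 1.08 and 1.05 and not called. miR-320b, which has the seed of miR-320c as the letters below show, had a difference of 0.92 (SE 0.46), which did not pass. miR-320a, the most abundant of the list, was at 27294 and 19327 CPM in SDS D0 and at 13374 and 17057 CPM in DXR D0 (log2 difference 0.62, SE 0.36, not called).
miR-320b: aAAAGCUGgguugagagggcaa
miR-320c: aAAAGCUGgguugagagggu

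The remaining miRNAs called higher in SDS D0 had few counts. miR-296-5p, the other arm of the miR-296 hairpin, was at 64.3 and 44.6 CPM in SDS D0 and 10.7 and 18.0 CPM in DXR D0 (log2 difference 1.95, SE 0.86). miR-3605-5p, from PHC2, had 5 and 6 against 5 and 2 counts (2.65, SE 0.93). miR-532-3p, from an intron of CLCN5, had 5 and 6 against 9 and 6 counts (1.56, SE 0.67). miR-299-5p had 10 and 10 against 24 and 12 counts (1.18, SE 0.55). The libraries of the 2 agents did not overlap in CPM for these 4, which held for 39.4% of all tested. The naming rule required it of miR-296-5p, miR-3605-5p and miR-532-3p. The adjusted p of the 4 ranged from 0.156 to 0.364. Each of the 4 lost its call without single libraries. miR-3605-5p did so without SDS D0 replicate 2 (2.31) or DXR D0 replicate 2 (2.27), and miR-532-3p without SDS D0 replicate 2 (1.21), DXR D0 replicate 1 (1.55) or DXR D0 replicate 2 (1.44). miR-296-5p (1.51 to 2.23) and miR-299-5p (0.88 to 1.41) did so without any 1 of the 4 libraries. miR-4685-3p, named after its values were seen, had 6 and 0 counts in SDS D0 and 1 in each DXR D0 library. Its groups overlapped, and the ratio was 12.1 with an exact counting interval of 2.16 to 122.

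Among p53-induced miRNAs, 6 of 13 listed were tested, 2 were called lower in SDS D0 (3.61% over all tested) and 0 higher. The median log2 difference was -0.84, and 4 of the 6 had both DXR D0 libraries above both SDS D0 libraries, which held for 22.5% of all tested. Relative to Ctrl the median was -0.26 in SDS D0 and 0.60 in DXR D0. The called members were miR-34a-5p and miR-34c-5p. miR-34c-5p had 2 and 3 counts in SDS D0 and 55 and 27 in DXR D0, a ratio of DXR D0 to SDS D0 of 4.07 with an exact counting interval of 1.68 to 12.9 (adjusted p = 0.156). Ctrl was at 25.8 and 57.2 CPM against 118 and 81.0 CPM in DXR D0. Both calls are in the same direction, but miR-34c-5p was not called without SDS D0 replicate 1, at -1.63, with DESeq2 on the 4 libraries or with all libraries thinned to the smallest total, at -0.97 against -1.97 with all counts. miR-194-5p (-0.37), miR-192-5p (0.19), miR-34b-3p (0.19) and miR-34c-3p (-1.69, SE 1.45) did not pass. The 4 without overlap share libraries and include both arms of miR-34c. Of these, miR-34c-3p had only 1 and 0 counts in SDS D0 and 5 and 8 in DXR D0.

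Of the miR-30 family, 8 of 11 listed were tested. Of these, 2 were called lower in SDS D0 (3.61% over all tested) and 0 higher. The difference was above 0 for 1 of the 8, against 48.6% of all tested, and the median was -0.63. miR-30e-5p, from an intron of NFYC, was at 450 and 669 CPM in SDS D0 and 1743 and 1419 CPM in DXR D0, with no overlap (log2 difference -1.51, SE 0.44, adjusted p = 0.0719). Ctrl was between them at 864 and 1021 CPM. miR-30c-2-3p, a miRNA known from the unfolded protein response, had 4 and 4 counts against 41 and 28 (-1.09, SE 0.48, adjusted p = 0.331), and was not called without SDS D0 replicate 1 (-0.99) or replicate 2 (-1.30). It was the called member of the ER stress list, of which 2 of 6 were tested. miR-30a-5p was at 8813 and 9752 CPM in SDS D0 and at 15277 and 16282 CPM in DXR D0 (-0.77, SE 0.24). It did not reach a log2 difference of 1, though its libraries did not overlap. miR-30d-5p, the most abundant of the family, was at -0.31 (SE 0.19), miR-30c-5p at -0.36 (SE 0.29) and miR-30b-5p at 0.39 (SE 0.55), and none of the 3 passed. The sequences of miR-30a-5p, miR-30c-5p and miR-30e-5p, those of the 5p arms matched in RefSeq, are printed to show the seed they share.
miR-30a-5p: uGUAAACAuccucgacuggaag
miR-30c-5p: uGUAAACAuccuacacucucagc
miR-30e-5p: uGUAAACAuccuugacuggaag

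miR-126-3p, an endothelial miRNA encoded in EGFL7, was lower in SDS D0. It had 2 and 4 counts in SDS D0 and 42 and 38 in DXR D0, which are 18.4 and 44.6 against 90.1 and 114 CPM (log2 difference -1.73, SE 0.57, adjusted p = 0.121). Both Ctrl libraries were at about 43.0 CPM. The endothelial markers, miR-126-3p and miR-126-5p, summed to 18.4 and 44.6 CPM in SDS D0 and 92.3 and 117 CPM in DXR D0. Of 7 blood markers 5 were in the data, and these summed to 303 and 145 against 455 and 282 CPM. Nearly all of the blood sum was miR-486-5p, with a difference of -0.73 (SE 0.44, not called). The part of other cells or of serum RNA in these values was not tested. Without SDS D0 replicate 1 miR-126-3p was not called, at -1.23.

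The other miRNAs called lower in SDS D0 were miR-182-5p, miR-542-3p, miR-140-5p, miR-7706 and miR-490-3p. miR-182-5p had 0 and 1 counts in SDS D0 and 13 and 20 in DXR D0, a ratio of 8.20 with an exact counting interval of 1.37 to 333. miR-140-5p, a cartilage miRNA encoded in WWP2, had 1 and 2 counts against 29 and 17, a ratio of 3.81 (1.22 to 19.1). miR-7706 had 3 and 2 counts against 24 and 30, a ratio of 2.68 (1.08 to 8.60). These intervals nearly reach 1, and the true size of the difference is poorly set by so few SDS counts. miR-542-3p was at 27.6 and 44.6 CPM in SDS D0 and 225 and 138 CPM in DXR D0 (log2 difference -2.36, SE 0.88), and miR-490-3p at 36.8 and 22.3 against 75.1 and 84.0 CPM (-1.39, SE 0.58). No library of the 2 agents overlapped for any of the 5, which the naming rule required of them and which held for 39.4% of all tested. Their adjusted p ranged from 0.181 to 0.407. Without SDS D0 replicate 1, miR-182-5p (-1.96), miR-542-3p (-2.08), miR-140-5p (-1.39) and miR-7706 (-1.67) were not called. The same held without SDS D0 replicate 2 for miR-490-3p (-1.18) and miR-7706 (-1.42), without DXR D0 replicate 1 for miR-542-3p (-2.03) and miR-140-5p (-1.80), and without DXR D0 replicate 2 for miR-182-5p (-2.49) and miR-7706 (-1.12).

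The most abundant miRNAs differed little. let-7a-5p was first in both agents, with a mean of 107774 CPM (SD 12824) in SDS D0 and 106605 CPM (SD 39766) in DXR D0, and the agents shared 8 of their 10 most abundant miRNAs. None of the 10 most abundant over the 4 libraries was called, by log2 differences of -0.41 (miR-24-3p, miR-10a-5p) to 0.08 (miR-222-3p). miR-21-5p was at 44498 and 95507 CPM in SDS D0 and 91106 and 70075 CPM in DXR D0, so its SDS replicates differed more than the means of the agents. miR-155-5p, known from inflammation, was at 7223 and 5729 CPM in SDS D0 and at 6490 and 7280 CPM in DXR D0, which overlap (log2 difference -0.09, 95% interval -0.61 to 0.43). miR-374b-5p had 331 and 346 CPM against 326 and 339 CPM (0.02, interval -0.61 to 0.66). Against the shared Ctrl it was 0.77 in SDS D0 and 0.75 in DXR D0, below a log2 difference of 1.

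The other lists held no call besides miR-487b-5p and miR-299-5p of the 14q32 cluster, an imprinted group of miRNA genes. Of its 88 listed miRNAs 67 were tested, 2 were called higher in SDS D0, a share close to the 3.33% over all tested, and 0 lower. The median was -0.07. No member was called among 10 NF-kB miRNAs (median 0.04), 13 of the miR-17 clusters (-0.37), 8 of the miR-15/16 family (-0.06), 13 of the let-7 family (0.02), 5 of the miR-29 family (0.32), 12 fibroblast miRNAs (0.10), 10 of the miR-23/27/24 clusters (-0.01), 4 of miR-221 and miR-222 (-0.26), 2 of the HOX clusters (-0.37), 4 of liver, neuron and muscle (-0.43, or 0.02 with the one at 0 in SDS D0 put at its bound), 1 of hypoxia (-0.31) and 1 epithelial (-0.49). The miR-17 clusters are driven by MYC and E2F and accompany proliferation. Their 4 tested members with the seed aaagugc all lay below 0, from -0.49 to -0.24, and none passed.

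**Figure D3:**
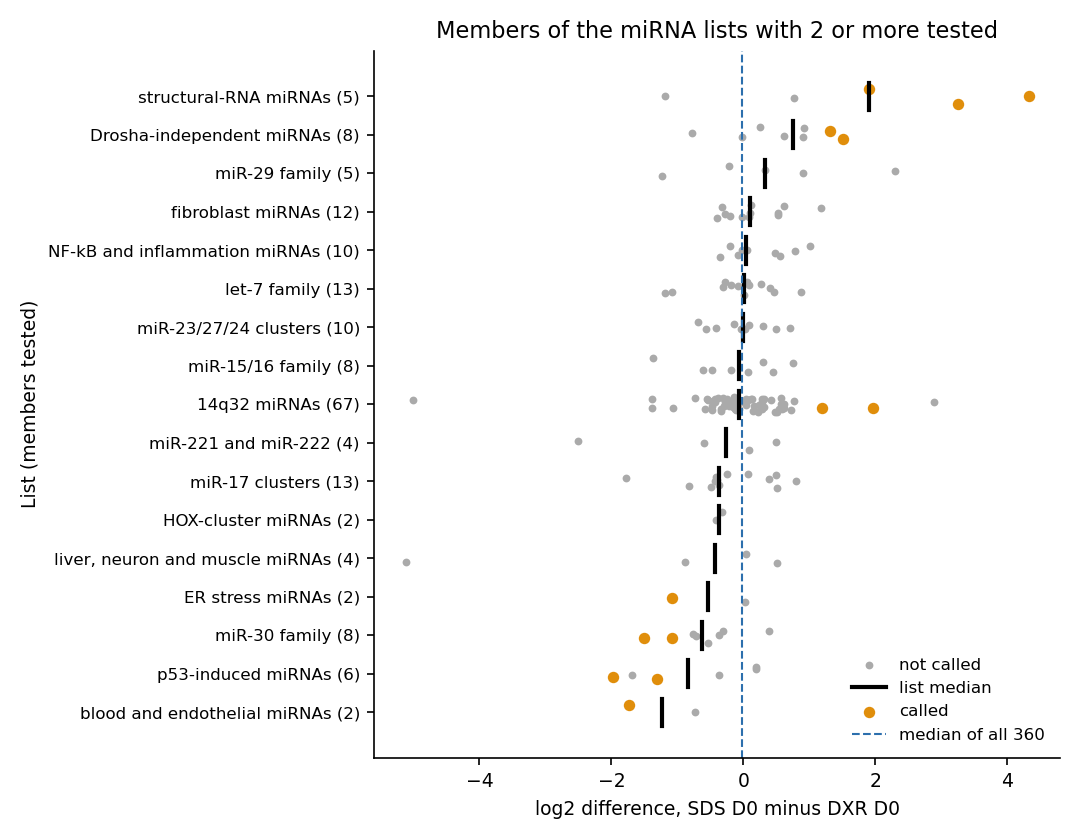
Log2 difference between SDS D0 and DXR D0 (horizontal) of each tested member of the lists with at least 2 members tested (vertical, number tested in parentheses); grey points are not called, orange points are called, black bars are list medians and the dashed line is the median of all 360. The structural-RNA list (median 1.90) lies furthest to the right, and the lists with a median under -0.5 are ER stress, miR-30, p53-induced and blood and endothelial.

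Over all hairpins with both arms tested, the 2 arms did not generally move together. Of 92 hairpins with both arms tested, 48 had log2 differences of the same sign. Both arms were called only for miR-296 (2.36 and 1.95) and miR-335 (-2.78 and -1.19), and exactly 1 arm for 9 others. miR-487b-5p was at 1.97 while miR-487b-3p was at 0.05 (SE 0.20), miR-532-3p was at 1.56 while miR-532-5p was at 0.08 (SE 0.34), and miR-3605-5p was at 2.65 while miR-3605-3p was at -0.71 (SE 0.68). For the other hairpins with 1 arm called, the arm not called lay on the same side of 0 as the called arm. It was at 0.90 for miR-877-3p, 0.50 for miR-299-3p and -0.36 for miR-30c-5p. It was at -0.47 for miR-140-3p, -0.72 for miR-30e-3p and -0.81 for miR-490-5p. The SE of these ran from 0.28 to 0.77. The difference between the arms was not tested.

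The base composition of the called miRNAs differed. A RefSeq sequence was found for 329 of the 360 tested miRNAs and 23 of the 25 called. The median GC content was 58.9% for the 12 called higher in SDS D0, 45.5% for 11 called lower and 50% for all. Among the 70 miRNAs with a GC content of 60% or more, 6 were called higher and 1 lower, and among the 88 with up to 43.5%, 1 was higher and 5 lower. Across the 329 miRNAs, which share libraries and are not independent, the difference between the agents correlated with GC content with Spearman's rho of 0.192. Between the 2 SDS D0 replicates rho was 0.440 and between the 2 DXR D0 replicates -0.335, larger than between the agents. The GC trend of each library was then removed, an alternative chosen after seeing the data. This fit tested only the 329 miRNAs with a sequence, without the called miR-34c-5p and miR-542-3p. In it 27 miRNAs were called, 16 higher and 11 lower. The 6 miRNAs at adjusted p in the main fit had log2 differences of 3.17 (miR-1260b), 2.20 (miR-296-3p), 1.90 (miR-487b-5p), -2.45 (miR-335-3p), -1.32 (miR-7-5p) and -1.29 (miR-34a-5p), all called.

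Each agent was set against Ctrl for the 25 called miRNAs, with the 2 Ctrl libraries in both comparisons. In SDS D0 against Ctrl 19 of the 360 tested were called (5.28%), and in DXR D0 against Ctrl 14 (3.89%). Of the 25, 9 were called in SDS D0 against Ctrl, 6 in DXR D0 against Ctrl, 1 of them in both, and 11 in neither. miR-1260b was called in both, at 1.81 and -1.45. miR-7-5p and miR-335-3p (-2.51 in SDS D0, 0.27 in DXR D0) were called in SDS D0, and miR-126-3p (-0.49 and 1.24) and miR-34c-5p (-0.76 and 1.21) in DXR D0. In DXR D0 against Ctrl no miRNA reached an adjusted p of 0.05 in edgeR (0%), with 34 at an unadjusted p under 0.05 (9.44%).

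**Figure D4:**
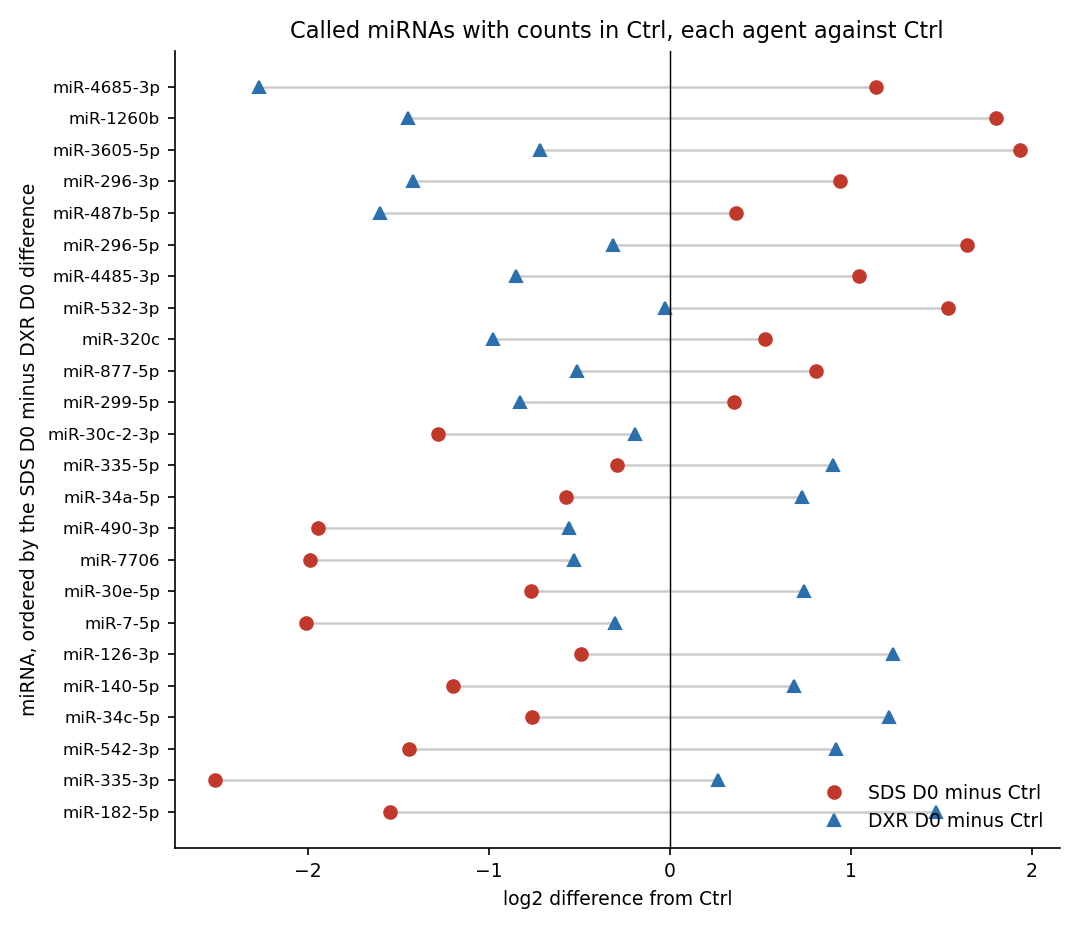
Log2 difference from Ctrl (horizontal) in SDS D0 (circles) and DXR D0 (triangles) of each called miRNA (vertical, ordered by the difference between the agents), without miR-1246, which had 0 counts in both Ctrl libraries; both differences use the same 2 Ctrl libraries. The 25 were chosen for a difference between the agents, so the symbols of a miRNA stand apart by that choice; miR-1260b is at 1.81 and -1.45, and miR-7-5p at -2.01 and -0.30.

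The differences at D0 were then followed after washout, where each day has its own libraries. Of the 25 called at D0, 11 were called in the same direction at D1 and 1 in the opposite direction (miR-7706, 1.21). At D1, 42 of all 360 were called in either direction (11.7%). The number called in the same direction was 6 at D2, 3 at D3, 1 at D4, 1 at D6, 0 at D8 and 1 at D16. Over all tested, the shares called in either direction on these days were 8.06%, 4.17%, 6.39%, 3.89%, 3.89% and 4.72%. The difference between the agents correlated with GC content at rho 0.391 at D1 and 0.307 at D2, against 0.192 at D0. It was 0.147 at D3 and ran from -0.168 to -0.026 from D4 on. The part of GC content in the repeated calls was not tested. At D3 and D8, 1 was called in the opposite direction (miR-1260b, -1.03, and miR-3605-5p, -1.88). miR-34c-5p was called at D1 (-1.79), D2 (-2.44, adjusted p = 0.0163) and D3 (-1.63). miR-335-3p was called at D1 (-2.30, adjusted p = 0.0199), D2 (-1.51) and D3 (-1.00015, adjusted p = 0.339). miR-34a-5p was at -0.91 at D1, -0.71 at D2, -0.81 at D3 and -0.996 at D4 (adjusted p = 0.0309, not called). It was then at -0.31 at D6, -0.27 at D8 and 0.17 at D16. Its SDS libraries of the later days had a median of 397 CPM and its DXR libraries one of 610 CPM.

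miR-1260b did not keep its difference. At D1 it was at 80.6 and 69.1 CPM in SDS and at 55.6 and 86.0 CPM in DXR, which overlap, with a log2 difference of 0.12. Over D1 to D16 it ran from -1.03 (D3) to 0.82 (D2). The D0 difference exceeded that of D1 by 3.14 (SE 0.70, adjusted p = 0.0352), the only miRNA of 360 at adjusted p under 0.05 in this test (0.278%), where 15 passed the unadjusted thresholds (4.17%). It exceeded the mean of the 7 later days by 3.17 (SE 0.54, adjusted p = 0.00074). Against that mean 30 miRNAs were called (8.33%) and 5 passed at adjusted p (1.39%).

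miR-7-5p turned its sign. At D1 it was at 1219 and 497 CPM in SDS and 1111 and 634 CPM in DXR, which overlap, with a difference of -0.01. From D2 to D16 the difference lay between 0.29 (D6) and 0.94 (D8), and the D0 difference was below the mean of the later days by -2.28 (SE 0.44, adjusted p = 0.00243). The DXR libraries of later days had a median of 428 CPM, close to the 395 and 346 CPM of SDS D0. For miR-335-3p, miR-34a-5p, miR-296-3p and miR-487b-5p neither test of D0 against the later days passed at adjusted p, with differences from the later mean of -2.03, -0.76, 1.74 and 1.75. The other 3 miRNAs that passed against the later mean, miR-221-3p (0.82), miR-574-5p (1.04) and let-7d-5p (0.87), were named after their values were seen and are not among the 25 called at D0.

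**Figure D5:**
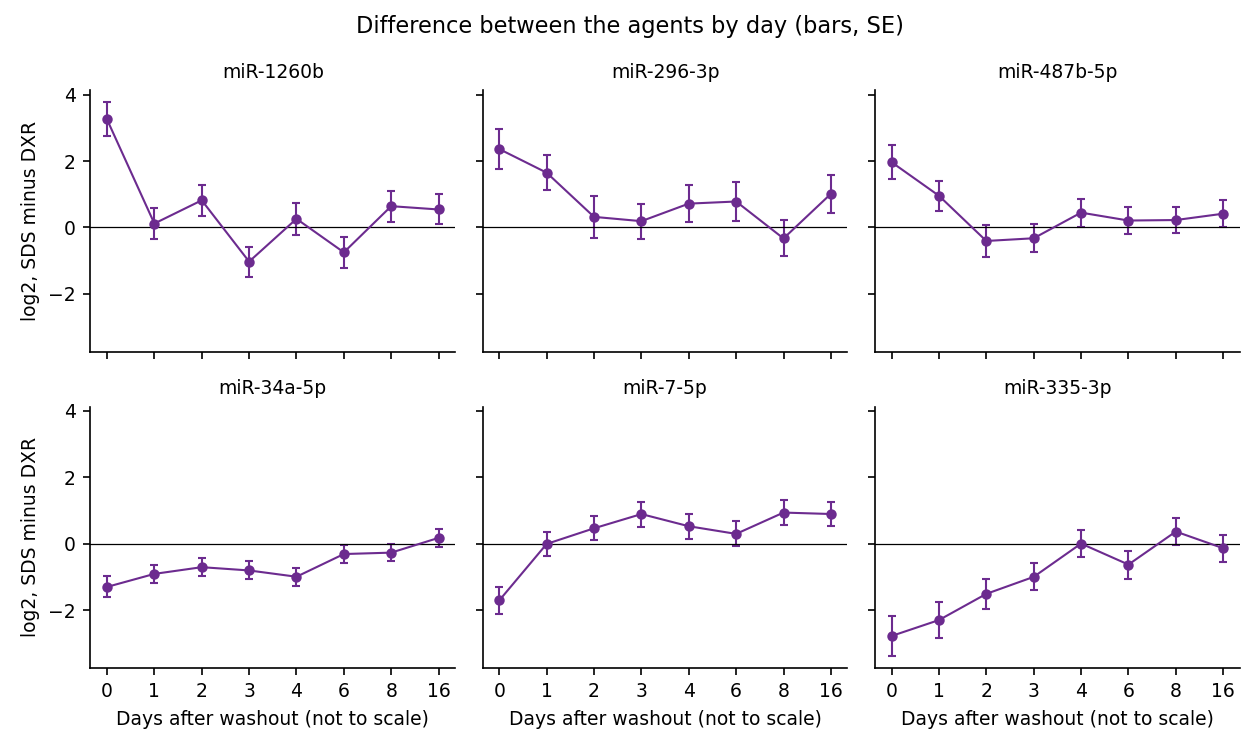
Log2 difference between SDS and DXR (vertical, bars are SE of the fit) by days after washout (horizontal, categories not to scale) for the 6 miRNAs at adjusted p under 0.05 at D0; each point compares 2 SDS with 2 DXR libraries of that day. miR-1260b falls from 3.25 at D0 to 0.12 at D1, miR-7-5p goes from -1.71 to -0.01, and miR-335-3p nears 0 by D4.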

How the data were processed

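Total RNA (100 ng) was made into libraries with the NEXTFLEX Small RNA-Seq Kit v3 in 17 PCR cycles. The authors mapped reads to GRCh38 and miRBase with exceRpt and deposited expected counts per mature miRNA without normalization, 1 table of 36 libraries. Reads that fit several miRNAs are split, so 1003 of 54288 values were not whole. They were rounded. PCR copies were not marked, so counts are not all separate molecules. Replicates are labelled biological, and 0 columns were left without a sample.

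All 36 libraries were fitted together in edgeR 4.0.16 (R 4.3.3) with TMM scaling, filterByExpr on the 18 conditions (360 miRNAs kept, at least 99.8% of each library's counts) and the quasi-likelihood test. The biological coefficient of variation was 20.9%. A miRNA was called where its log2 difference exceeded 1 in size and its unadjusted p was under 0.05; adjusted p is Benjamini-Hochberg over 360. A prior count of 2 was used for log2 CPM values, not for the fitted differences. DESeq2 1.42.0 was an alternative.

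miRNAs were named when at adjusted p under 0.05, among the 10 highest or lowest called without overlap, among the 10 most abundant, called in a list, or 1 of miR-1260b, miR-155-5p, miR-7-5p, miR-34a-5p and miR-374b-5p. The comparison and lists were chosen with earlier results of these data known. The test was checked on counts simulated with an equal spread for every miRNA and no GC trend. That check cannot show how the test does on the SDS D0 libraries. Sequences are RefSeq's, hosts GENCODE's. mRNA data were not analysed here.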

Additional observations from a re-analysis of the deposited data

Results flagged for a closer look

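The difference between SDS and DXR at D0 differed from that of later days, by a test of the difference itself at adjusted p under 0.05, for 5 miRNAs. miR-1260b differed both from D1, by 3.14 (SE 0.70, adjusted p = 0.0352), and from the mean of the later days, by 3.17 (SE 0.54, adjusted p = 0.00074). miR-7-5p differed from the mean of the later days by -2.28 (SE 0.44, adjusted p = 0.00243). miR-221-3p did so by 0.82 (SE 0.17, adjusted p = 0.00447), from 0.50 at D0 to between -0.62 (D4) and -0.02 (D16) later. miR-574-5p did so by 1.04 (SE 0.23, adjusted p = 0.00692), from 0.47 at D0 to -1.01 at D6, and let-7d-5p by 0.87 (SE 0.22, adjusted p = 0.0275), from 0.40 at D0 to -0.80 at D8. miR-221-3p was at 21753 and 22537 CPM in SDS D0 and 16308 and 15067 CPM in DXR D0, with no overlap. Groups of 2 libraries are too small to test for a library far from the others.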

How the results depend on the processing

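Under every alternative miR-1260b (3.05 to 3.34), miR-34a-5p (-1.57 to -1.15), miR-7-5p (-1.86 to -1.32), miR-335-3p (-3.98 to -2.12) and miR-30e-5p (-1.89 to -1.29) kept their direction and stayed called. The main count of 25 became 10 with DESeq2 on the 4 libraries, 15 with libraries thinned to the smallest total, 12 with the replicate block on the 4 libraries and 16 with the replicate block and the GC trend removed, and 25 to 33 without 1 library. It was 28, 16 higher and 12 lower, with total counts as scaling and 34, 13 higher and 21 lower, without the filter. The 6 at adjusted p became 3 with DESeq2 on the 4 libraries, 1 with the replicate block, 13 with the GC trend removed, 14 with crossed pairs as the block, 1 without SDS D0 replicate 1, 2 without either DXR D0 replicate and 4 without SDS D0 replicate 2 (1 to 4). The fits with the GC trend removed tested only the 329 miRNAs with a sequence, and their p was adjusted over these. The cause of the changes in count was not tested.

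The test against D1 gave 15 calls, 1 at adjusted p, 30 without the filter, 5 with DESeq2 on the compared libraries, 3 after thinning, and 13 to 36 without 1 library (33 without SDS D0 replicate 1, 36 without SDS D1 replicate 1). The test against later days gave 30, 5 at adjusted p, 14 after thinning and 20 to 43 without 1 library (43 without DXR D0 replicate 1, 20 without DXR D0 replicate 2). The lone library left in a group was assumed to vary like the others.

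The labels do not say whether same-numbered SDS D0 and DXR D0 libraries share a culture or day. Their deviations correlated at -0.249, which cannot decide this. The deviations also followed GC content, with rho of 0.440 in SDS D0 and -0.335 in DXR D0. The replicate block on all libraries gave 25 calls, and crossed pairs, chosen after seeing the data, gave 25.

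Small differences that were not called changed sign. Without the filter miR-222-3p was at -0.059, miR-374b-5p at -0.11 and let-7a-5p at -0.13, and let-7a-5p was at -0.00012 with DESeq2 on the 4 libraries. miR-125a-5p and miR-23a-3p were at 0.060 and 0.053 with total counts, 0.044 and 0.054 with a mean of at least 10 counts, 0.020 and 0.0030 with edgeR on the 4 libraries, and 0.030 and 0.074 after thinning. miR-23a-3p was at 0.0037 with the replicate block or crossed pairs. With the GC trend removed, miR-23a-3p was at 0.028, miR-155-5p at 0.21, let-7f-5p at 0.24 and miR-21-5p at 0.045, and with the replicate block added, the first 3 were at 0.023, 0.17 and 0.21. Without 1 library, miR-222-3p ran from -0.24 to 0.23, miR-374b-5p from -0.088 to 0.0085, let-7a-5p from -0.41 to 0.39, miR-125a-5p from -0.35 to 0.14, let-7f-5p from -0.57 to 0.19 and miR-21-5p from -0.93 to 0.19.

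Of the single miRNA values, 453 kept their direction and call under an alternative, 79 kept the direction and lost the call, and 31 changed sign.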

Other observations

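Members of a few seed families that held no call lay on the same side of 0. The 4 tested miR-181 miRNAs lay above 0 in SDS D0 against DXR D0, from 0.23 to 0.57 with a median of 0.27, and the 3 miRNAs with the seed of miR-92a-3p and miR-25-3p lay at 0.07 to 0.49 with a median of 0.38. The 9 tested let-7 miRNAs lay on both sides, from -0.32 to 0.87, with 5 above 0. These were picked after their values were seen, none of them was called, and they share libraries.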
